A study of Caenorhabditis elegans with 6 samples.

Results

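The hsp-16 genes of Caenorhabditis elegans encode small heat shock proteins, and 6 of the 46778 genes with deposited expression values carry a symbol beginning with hsp-16 in the WBcel235 annotation. They share 4 symbols: hsp-16.2 and hsp-16.41 have 1 gene each, and hsp-16.1 and hsp-16.48 have 2 gene copies each. The genes were chosen by symbol, with their expression in these libraries already known, so their levels and fold changes are a description and no test of them is given.

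RNA was sequenced from whole N2 (wild type) worms grown at 20 °C and harvested at the fourth larval stage (L4). One group of 3 libraries is labelled let-607 RNAi, from worms fed HT115 bacteria that express double-stranded RNA against let-607 and were diluted with vector control bacteria. The other group of 3 libraries is labelled control, from worms fed HT115 bacteria with the empty vector L4440. let-607 encodes a transcription factor of the family of mammalian CREBH, a membrane-bound factor, and the series asked which transcripts change when it is knocked down.

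Small heat shock proteins hold unfolding proteins in a soluble state, without using ATP, until other chaperones can refold them. In C. elegans the hsp-16 genes are nearly silent in unstressed worms and are switched on by heat and other protein-damaging stress through the heat shock factor HSF-1, with a contribution from the FOXO factor DAF-16. Fluorescent reporters driven by an hsp-16 promoter are a common readout of the heat shock response.

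The RNAi target was examined first. let-607 was at 71.0, 76.2 and 77.9 FPKM (fragment counts divided by transcript length and library size) in the let-607 RNAi-labelled libraries, against 69.1, 57.1 and 57.3 FPKM in the control libraries. The FPKM assigned to let-607 was therefore not lower in the let-607 RNAi-labelled libraries. Whether reads from the fed double-stranded RNA entered these values was not tested, so they do not measure the knockdown. Every direction given here rests on the labels. Of the 15453 genes that averaged 0.5 FPKM or more, 579 (3.75%) passed as higher against the control libraries and 216 (1.4%) as lower. Passing required a Benjamini-Hochberg adjusted p under 0.1 in limma and a fold change above 2. Over all of these genes the log2 fold change had a median of 0.12, and this shift is to be subtracted when a small difference is read. Of 21 marker genes of intestine, muscle, hypodermis, neurons, germline, sperm, oocyte and adult, 0 passed limma with a fold above 2 in either direction, 10 had an unadjusted p under 0.05 (44.5% of all genes tested had one), and their median log2 fold change was 0.18. Their summed level ran between 5738 and 5834.5 FPKM in the let-607 RNAi-labelled libraries and between 4680 and 5027 FPKM in the control libraries. The 3 sperm markers summed to between 1743 and 1785 FPKM in the let-607 RNAi-labelled libraries and to between 1026 and 1218 FPKM in the control libraries, and the oocyte marker rme-2 had a log2 fold change of 0.69. The 3 adult markers had log2 fold changes of 0.98 (vit-2), -0.22 (vit-6) and -0.15 (col-19), with summed levels between 60.8 and 124 FPKM in the let-607 RNAi-labelled libraries and between 49.3 and 189 FPKM in the control libraries, where the first library was the highest. The part of such differences in tissue makeup or stage in the hsp-16 values was not tested, and in whole worms more expressing cells and more RNA per cell cannot be told apart.

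All 6 genes lie on chromosome V, in 2 loci 7281417 bases apart, and are arranged as 3 divergent pairs. In WBcel235, hsp-16.2 (WBGene00002016, Y46H3A.3) spans 1804334 to 1804957 on the minus strand. Its partner hsp-16.41 (WBGene00002018, Y46H3A.2) spans 1805178 to 1805875 on the plus strand. The second locus holds the other symbols in duplicate, as an inverted repeat of a divergent pair. From left to right it holds hsp-16.1 copy T27E4.8 (WBGene00002015, 9087293 to 9087782, minus strand), hsp-16.48 copy T27E4.3 (WBGene00002019, 9088131 to 9088617, plus strand), hsp-16.48 copy T27E4.9 (WBGene00002020, 9089280 to 9089766, minus strand) and hsp-16.1 copy T27E4.2 (WBGene00002017, 9090077 to 9090604, plus strand). RefSeq names T27E4.2 hsp-16.11 and T27E4.9 hsp-16.49.

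Gene structure divided the family within each pair rather than between loci. Each of the 6 genes has 2 exons and 1 intron. hsp-16.1 (both copies) and hsp-16.2 have coding exons of 126 and 309 bases and 145 codons without the stop codon. hsp-16.48 (both copies) and hsp-16.41 have coding exons of 138 and 291 bases and 143 codons. Every divergent pair thus joins 1 gene of each kind. The start codons of the partners are 348 bases apart in both pairs of the duplicated locus and 346 bases apart between hsp-16.2 and hsp-16.41.

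**Figure D1:**
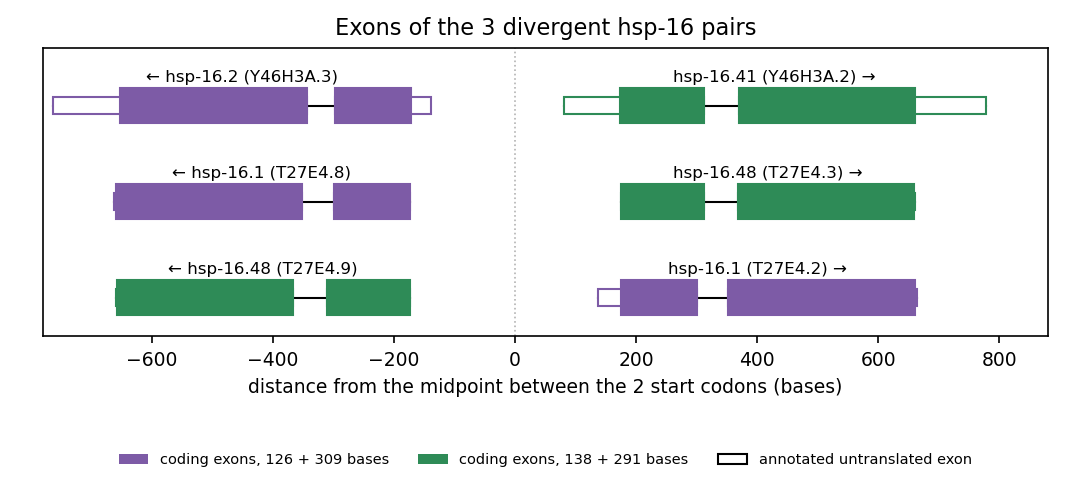
Exons of the 3 divergent hsp-16 pairs, drawn to scale against the distance in bases from the midpoint between the start codons of the partners. Filled boxes are coding exons, open boxes annotated untranslated parts and lines introns; each pair holds 1 gene with coding exons of 126 and 309 bases and 1 with coding exons of 138 and 291 bases.

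The 4 symbols were expressed at 523 FPKM or more in the let-607 RNAi-labelled libraries and at 5.18 FPKM or less in the control libraries. hsp-16.2, the gene whose promoter is most used in reporters, was at 523, 588 and 525 FPKM in the let-607 RNAi-labelled libraries, against 0.28, 0.66 and 0.58 FPKM in the control libraries. Its mean was 545 ± 36.8 FPKM in the let-607 RNAi-labelled libraries and 0.507 ± 0.200 FPKM in the control libraries (SD, n = 3 each), a ratio of 1076. The ratio between single libraries of the 2 groups ran between 793 and 2099, which shows how far the value depends on the low control level. The log2 fold change on the log2(FPKM + 0.1) scale, where the added 0.1 shrinks the fold of genes this low in the controls, was 9.87 (SE 0.25).

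Its divergent partner hsp-16.41 behaved alike in level and spread. hsp-16.41 was at 631, 699 and 627 FPKM in the let-607 RNAi-labelled libraries, against 0.62, 0.35 and 1.01 FPKM in the control libraries. The mean was 653 ± 40.7 FPKM in the let-607 RNAi-labelled libraries and 0.660 ± 0.332 FPKM in the control libraries (SD, n = 3 each), a ratio of 989 with single-library ratios between 621 and 1999. The log2 fold change was 9.84 (SE 0.30). For both genes of this pair the groups were far from overlapping.

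The highest expressed member was hsp-16.1, and nearly all of its signal was assigned to 1 of its 2 copies. Copy T27E4.2 was at 2551, 2778 and 2521 FPKM in the let-607 RNAi-labelled libraries, against 5.05, 5.18 and 2.09 FPKM in the control libraries, with a log2 fold change of 9.39 (SE 0.33). Copy T27E4.8 had 0 FPKM in each of the 3 let-607 RNAi-labelled libraries, against 0.13, 0 and 1.29 FPKM in the control libraries. Its mean of 0.237 FPKM over the 6 libraries was under the minimum for a test, so it has no fold change. T27E4.8 is thus the only member not higher in the let-607 RNAi-labelled libraries. The copies are annotated with the same coding lengths and differ in that T27E4.2 has 38 bases of annotated 5′ untranslated sequence and T27E4.8 has none, and how reads shared by both were divided is uncertain.

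Summing both copies removes part of that uncertainty. The sum still depends on the length used for each copy (438 bases of exon for T27E4.8 and 476 for T27E4.2), and no other division was tried. hsp-16.1 summed to 2551, 2778 and 2521 FPKM in the let-607 RNAi-labelled libraries, against 5.18, 5.18 and 3.38 FPKM in the control libraries. The summed mean was 2616.5 ± 140 FPKM in the let-607 RNAi-labelled libraries and 4.58 ± 1.04 FPKM in the control libraries (SD, n = 3 each), a ratio of 571. In the third control library, where T27E4.2 was lowest, T27E4.8 was highest, so that summing narrowed the spread of the controls, whose SD for T27E4.2 alone was 1.75 FPKM. The log2 fold change of the sum was 9.15 (SE 0.16).

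The 2 copies of hsp-16.48 (432 bases of exon each) carried identical values in every library, so the file gives 1 measurement for them and not 2. Whether the reads they share were divided between the copies or counted for both is uncertain. Sums, shares and ratios given below count both copies and depend on this. Each copy was at 528, 553 and 547 FPKM in the let-607 RNAi-labelled libraries, against 2.57, 1.83 and 2.13 FPKM in the control libraries. The mean per copy was 543 ± 13.2 FPKM in the let-607 RNAi-labelled libraries and 2.18 ± 0.372 FPKM in the control libraries (SD, n = 3 each), a ratio of 249 with single-library ratios between 205 and 302. Its log2 fold change of 7.91 (SE 0.11) was the smallest in the family, and its control level the highest per length among single genes after T27E4.2.

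**Figure D2:**
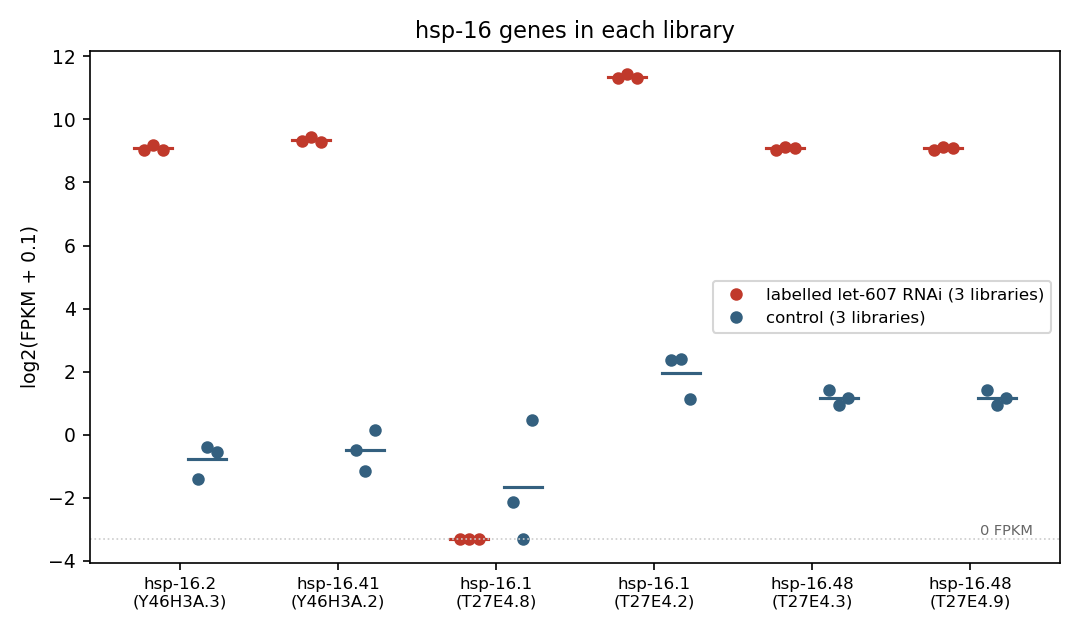
Level of each hsp-16 gene in each library as log2(FPKM + 0.1), with points for libraries and bars for the mean of the log2 values (n = 3 per group). In 5 genes the let-607 RNAi-labelled libraries lie at 523 FPKM or more and the control libraries at 5.18 FPKM or less, while hsp-16.1 copy T27E4.8 is listed at 0 in every let-607 RNAi-labelled library.

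Of the 6 members, 5 were high enough to test, and in these 5 every let-607 RNAi-labelled library lay above every control library and the criteria for higher were met. Among all genes tested, 3.75% met those criteria and 35.7% had every let-607 RNAi-labelled library above every control library. The members were selected on this contrast, so nothing is read from their count. hsp-16.2, hsp-16.41, T27E4.2 and the hsp-16.48 copies held ranks 1, 2, 3 and (shared by the copies) 4 by log2 fold change among the 15453 genes tested. This order depended on the settings and libraries, with ranks between 1 and 3 for hsp-16.2 and for hsp-16.41, 1 and 5 for T27E4.2 and 4 and 9 for hsp-16.48 over the alternatives. With a pseudocount of 1 T27E4.2 ranked first, and with a pseudocount of 0.01 or without the third control library F44E5.4 ranked above T27E4.2. By level within a library, T27E4.2 ranked between 100 and 108 of 46778 genes in the let-607 RNAi-labelled libraries, and between 10902 and 12965 in the control libraries.

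Summed over the family, hsp-16 transcripts were at 4761, 5171.5 and 4767 FPKM in the let-607 RNAi-labelled libraries, against 11.2, 9.85 and 9.23 FPKM in the control libraries. That sum was 0.333%, 0.364% and 0.340% of all FPKM in the let-607 RNAi-labelled libraries, against 0.000774%, 0.000672% and 0.000622% in the control libraries. The sum was between 2.38 and 2.62 times the level of hsp-1 in the let-607 RNAi-labelled libraries. In the control libraries it was between 0.00569 and 0.00680 of that level. hsp-1 encodes the constitutive cytosolic HSP70, one of the most abundant chaperones. These ratios depend on the length correction for the short hsp-16 transcripts and on counting both hsp-16.48 copies.

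The makeup of the family differed between the groups. hsp-16.1 contributed 53.4 ± 0.441% of the summed FPKM in the let-607 RNAi-labelled libraries and 45.1 ± 8.04% in the control libraries (SD, n = 3 each). hsp-16.48 contributed 22.2 ± 0.780% in the let-607 RNAi-labelled libraries and 43.04 ± 5.10% in the control libraries. hsp-16.2 contributed 11.1 ± 0.211% in the let-607 RNAi-labelled libraries and 5.16 ± 2.32% in the control libraries. For hsp-16.41 the shares were 13.3 ± 0.193% in the let-607 RNAi-labelled libraries and 6.67 ± 3.83% in the control libraries. The groups did not overlap for any symbol, though narrowly for hsp-16.1 (at least 52.9% against at most 52.6%). Levels of the short hsp-16.1 and hsp-16.48 transcripts relative to the longer ones depend on the length correction behind the FPKM. With copies summed, the order in every let-607 RNAi-labelled library was hsp-16.1, hsp-16.48, hsp-16.41 and hsp-16.2, with no overlap between neighbours. The place of hsp-16.48 rests on counting both copies. A single copy, at 528 to 553 FPKM, lay below hsp-16.41, at 627 to 699 FPKM. In the control libraries hsp-16.1 and hsp-16.48 overlapped, as did hsp-16.41 and hsp-16.2, and both of the duplicated symbols lay above both single ones.

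Ratios between the hsp-16 symbols varied little among the let-607 RNAi-labelled libraries. The spread of ratios between other genes at this level was not computed, so these ratios are not shown to be tighter than usual. The low spread was not particular to divergent partners. The SD of the log2 ratio was 0.01 for hsp-16.2 over hsp-16.41, 0.06 for hsp-16.1 over hsp-16.48 and 0.03 between the 2 loci. In the duplicated locus the copies were summed over both pairs, since the division of reads between copies is uncertain. hsp-16.2 over hsp-16.41 was 0.829, 0.840 and 0.837 in the let-607 RNAi-labelled libraries, against 0.452, 1.89 and 0.574 in the control libraries. The difference of the mean log2 ratios was 0.03, far inside the control SD of 0.91, so a change of this ratio was not detectable. hsp-16.1 over hsp-16.48, with the copies of each summed, was 2.42, 2.51 and 2.30 in the let-607 RNAi-labelled libraries, against 1.01, 1.42 and 0.793 in the control libraries. Its mean log2 ratio was 1.27 ± 0.06 in the let-607 RNAi-labelled libraries and 0.06 ± 0.41 in the control libraries (SD, n = 3 each), a difference of 1.21, and the groups did not overlap.

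The ratio between the loci also differed between the groups. The duplicated hsp-16.1/hsp-16.48 locus summed to 3606.5, 3884 and 3615 FPKM in the let-607 RNAi-labelled libraries, against 10.3, 8.84 and 7.64 FPKM in the control libraries, a ratio of means of 414. The hsp-16.2/hsp-16.41 locus summed to 1155, 1287 and 1151 FPKM in the let-607 RNAi-labelled libraries, against 0.90, 1.01 and 1.59 FPKM in the control libraries, a ratio of means of 1027. The first locus was 3.12, 3.02 and 3.14 times the second in the let-607 RNAi-labelled libraries, against 11.5, 8.75 and 4.81 times in the control libraries.

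**Figure D3:**
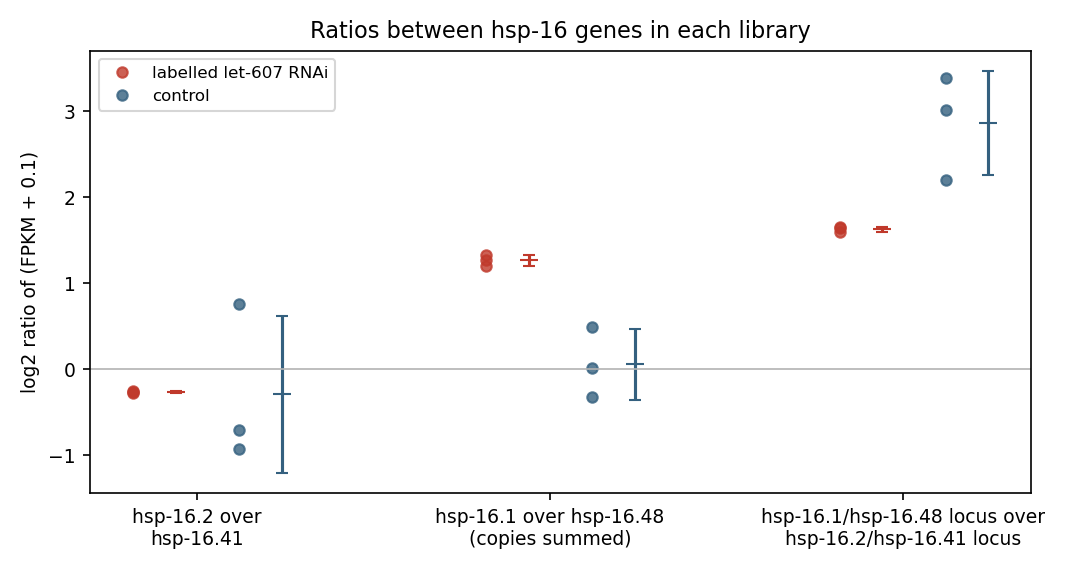
Log2 ratios between hsp-16 genes and between their loci in each library (points), with mean and SD beside them (n = 3 per group). The ratios of the let-607 RNAi-labelled libraries are tightly grouped, those of the control libraries are spread, and the groups are apart for hsp-16.1 over hsp-16.48 (difference 1.21) and for the loci, but not for hsp-16.2 over hsp-16.41 (difference 0.03).

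Control levels rested on very few fragments. From the step between the low FPKM values of single-transcript genes, each library was estimated to hold between 21300000 and 23000000 fragments. The step was taken as the one that made most low values whole, and with it between 73.3% and 75.7% of them came within 0.15 of a whole fragment. At this depth the hsp-16.2 values in the let-607 RNAi-labelled libraries stand for about 3622, 3755 and 3436 fragments, and those in the control libraries for about 1.91, 4.62 and 3.68. For hsp-16.41 the estimates were between 4960 and 5467 fragments in the let-607 RNAi-labelled libraries and 5.07, 2.94 and 7.74 in the control libraries. The wide spread of the control ratios therefore goes with single-digit fragment numbers, and the folds of these genes are known less well than their levels in the let-607 RNAi-labelled libraries. hsp-16.2 and hsp-16.41, with 578 and 640 bases of exon, are shorter than the 700 to 1600 bases of the genes used for the estimate. Their fragment numbers therefore also depend on the length correction. For hsp-16.1 and hsp-16.48, whose transcripts are shorter still, such an estimate depends on it strongly.

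Replicate spread within the let-607 RNAi-labelled libraries was above the median of tested genes at this level, hsp-16 genes included, for 3 of the 4 symbols. The coefficient of variation was 6.74% for hsp-16.2, 6.24% for hsp-16.41, 5.37% for hsp-16.1 and 2.43% for hsp-16.48. Among 399 tested genes at 400 to 3000 FPKM in these libraries the median was 3.40%, with quartiles of 2.05% and 5.453%. The second let-607 RNAi-labelled library was the highest for each expressed member. After median-of-ratios scaling it was still the highest for hsp-16.1, hsp-16.2 and hsp-16.41 but not for hsp-16.48.

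Other heat shock genes were examined to place the family within the response. These lists, and those of chaperones and regulators below, were chosen with earlier results of these data known. Their counts and p-values therefore describe the listed genes and are not an independent test of the lists. The heat-inducible HSP70 genes, which encode ATP-dependent refolding chaperones, passed as higher in 3 of 3 cases, where 3.75% of all genes tested passed. Their median log2 fold change was 4.82, against 0.12 over all genes tested. hsp-70 was at 8.02, 6.38 and 6.19 FPKM in the let-607 RNAi-labelled libraries, against 0.52, 1.01 and 0.51 FPKM in the control libraries (log2 fold change 3.21, limma adjusted p = 0.000319). The neighbouring HSP70 genes F44E5.4 and F44E5.5 had log2 fold changes of 7.88 and 4.82 (limma adjusted p = 0.00476 and 0.000137). The value for F44E5.4 is poorly fixed, since it was 9.57 without the third control library, 7.04 without the first or the second, 5.57 with a pseudocount of 1 and 10.11 with a pseudocount of 0.01. F44E5.4 was listed at 0 in 2 control libraries and at 3.26 FPKM in the third, where F44E5.5 was lowest at 2.49 FPKM. Their sum was 229, 199 and 185 FPKM in the let-607 RNAi-labelled libraries, against 6.34, 5.47 and 5.75 FPKM in the control libraries, a ratio of means of 34.9. As with the hsp-16.1 copies, the division of reads between these related genes is uncertain, and in the control libraries the sum varied less than either gene.

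Among small heat shock genes outside hsp-16, hsp-17 and sip-1 passed. Of 10 such genes, 7 could be tested, 2 passed as higher, 0 passed as lower and the median log2 fold change was 0.29. hsp-17 was at 685, 712 and 702 FPKM in the let-607 RNAi-labelled libraries, against 127, 126 and 121.5 FPKM in the control libraries (log2 fold change 2.49, limma adjusted p = 3.03e-07). sip-1, a small heat shock gene known from embryos, was at 163, 162 and 139 FPKM in the let-607 RNAi-labelled libraries, against 53.7, 37.3 and 50.0 FPKM in the control libraries (log2 fold change 1.73, limma adjusted p = 0.000287). hsp-17 thus lay at a level per length close to that of hsp-16.2 and hsp-16.41 in the let-607 RNAi-labelled libraries but far above theirs in the control libraries. The other tested genes (hsp-12.1, hsp-12.2, hsp-12.3, hsp-25 and hsp-43) had log2 fold changes between -0.29 and 0.85. The untested hsp-12.6, F08H9.3 and F08H9.4 stayed at 0.9 FPKM or less in every library, and RefSeq gives F08H9.3 and F08H9.4 the symbols hsp-16.20 and hsp-16.21, which the annotation used here does not.

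Constitutive cytosolic chaperones differed by less than the fold threshold. Of 18 genes (hsp-1, hsp-90, hsp-110, J-domain proteins, cochaperones and the CCT chaperonin subunits), 0 passed as higher and 0 as lower, with log2 fold changes between 0.05 and 0.54 and a median of 0.28. An adjusted p under 0.1 in limma, and an unadjusted p under 0.05, was reached by 16 of the 18, all with a positive difference. Among all genes tested, 31.7% had a positive difference with an adjusted p under 0.1, and 32.7% had one with an unadjusted p under 0.05. The largest values were 0.54 for sti-1 and 0.50 for cdc-37, both HSP90 cochaperones. The log2 fold change was above 0 in 18 of 18 as deposited and after rescaling to TPM, in 16 after median-of-ratios scaling and in 17 after quantile normalization. The share of all genes above 0 was not computed, so nothing is read from these counts. In the same order of settings, the median of the 18 genes was 0.28, 0.33, 0.16 and 0.26. The median of all genes tested was 0.12, 0.17, 0.005 and -0.025.

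Regulators were not changed past the thresholds. hsf-1, which encodes the main activator of the hsp-16 genes, was at 21.4, 23.95 and 24.1 FPKM in the let-607 RNAi-labelled libraries, against 20.8, 19.1 and 18.5 FPKM in the control libraries (log2 fold change 0.25, limma adjusted p = 0.0406), and 0.13 after median-of-ratios scaling. Together with hsb-1, ddl-1 and ddl-2, whose proteins bind and restrain HSF-1, 0 of 4 passed. In limma 2 of the 4 had an adjusted p under 0.1, and 2 had an unadjusted p under 0.05, as had 44.5% of all genes tested. These missed the fold threshold, the highest log2 fold change being 0.56 for ddl-2. daf-16 had a log2 fold change of 0.06 and its target genes sod-3 and mtl-1 had 0.16 and 1.25 (limma adjusted p = 0.401 for mtl-1), so 0 of 3 passed, and 0 had an unadjusted p under 0.05. The mtl-1 value was 1.98 without the first control library, 0.08 without the second, 1.70 without the third, 0.44 with a pseudocount of 1 and 2.31 with a pseudocount of 0.01, so its size is not determined. Of the chaperones of the endoplasmic reticulum and mitochondria (hsp-3, hsp-4, hsp-6 and hsp-60), 0 of 4 passed, with log2 fold changes between -0.13 and 0.41. In limma 3 of them had an adjusted p under 0.1, with 2 higher and 1 lower, and 3 had an unadjusted p under 0.05. These missed the fold threshold. mRNA levels do not report the activity of HSF-1 or DAF-16, which is set largely after translation.

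**Figure D4:**
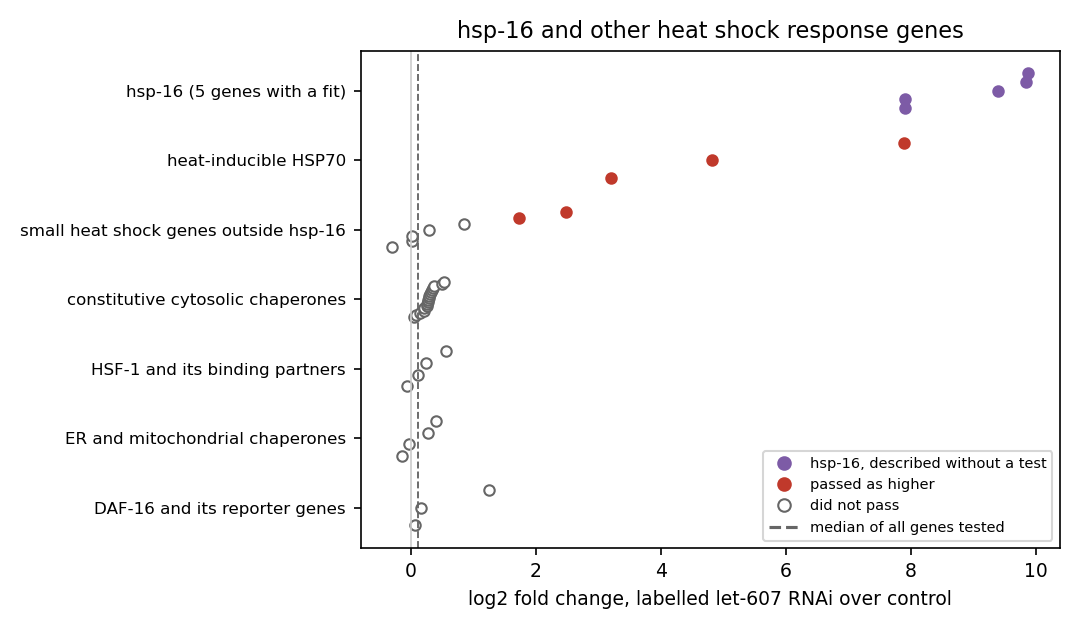
Log2 fold changes (let-607 RNAi-labelled libraries over control, on log2(FPKM + 0.1)) of the hsp-16 genes and of other heat shock response genes, 1 point per gene, with the median of all genes tested (0.12) as a dashed line. The hsp-16 genes lie between 7.91 and 9.87, filled points outside the family are the 5 genes that passed, and the constitutive chaperones cluster between 0.05 and 0.54.

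The genes around the hsp-16 loci that could be tested showed no comparable difference. Within 10 kb of a member lie 19 other annotated genes, of which 5 could be tested and 10 were listed at 0 in every library. Most of those at 0 are annotated as noncoding RNA genes, and a gene at 0 throughout carries no information on a difference. In limma 0 passed as higher (1 had an unadjusted p under 0.05 and a positive difference) and 1 passed as lower, where 1.4% of all genes tested passed as lower. The closest protein-coding neighbours of hsp-16.2 and hsp-16.41 are the chemoreceptor genes srt-41 and srt-42. srt-41, 1190 bases away, was listed at 0 in every library, and srt-42, 1584 bases away, was at 1.66, 0.11 and 0 FPKM in the let-607 RNAi-labelled libraries and at 0.11, 0.33 and 0.12 FPKM in the control libraries. T27E4.1, 1740 bases from the hsp-16.1 copy T27E4.2, had a log2 fold change of 0.43 (limma adjusted p = 0.135).

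The 1 neighbour that passed did so in the direction opposite to hsp-16. F21C10.9, 6596 bases from the nearest member, was at 22.4, 22.9 and 24.0 FPKM in the let-607 RNAi-labelled libraries, against 142.5, 151 and 146 FPKM in the control libraries (log2 fold change -2.66, limma adjusted p = 6.16e-07). F21C10.10, which lies between it and the locus on the opposite strand and overlaps it by 20 bases, had a log2 fold change of 0.71 (limma adjusted p = 0.00164), under the fold threshold. gly-7, 9975 bases from hsp-16.41, had -0.34 (limma adjusted p = 0.00129) and Y46H3A.4 had 0.24 (limma adjusted p = 0.317).

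**Figure D5:**
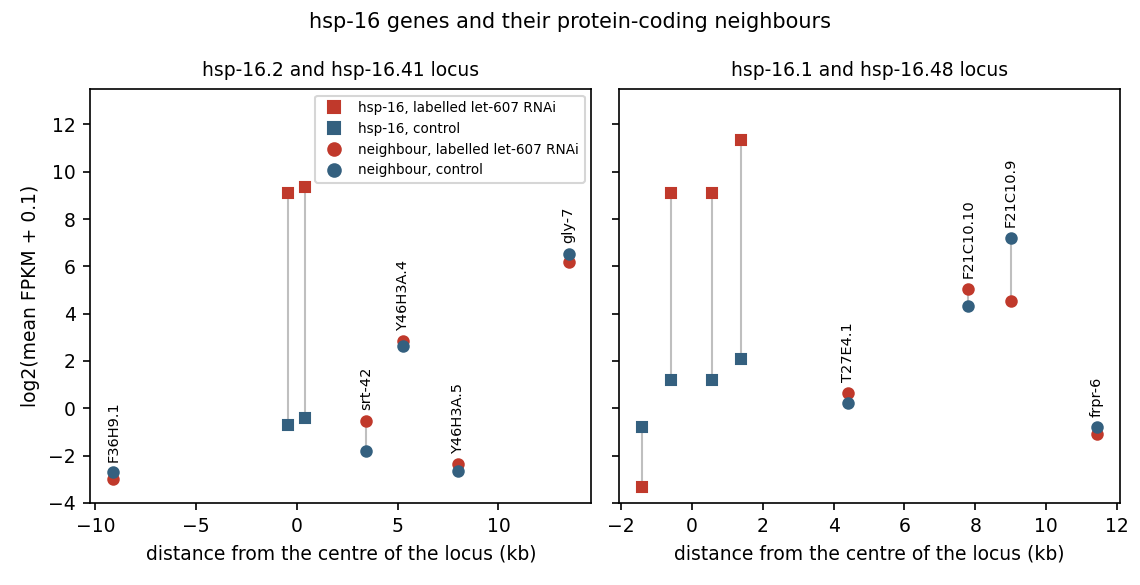
Mean level as log2(mean FPKM + 0.1) of the hsp-16 genes (squares) and of protein-coding neighbours with any signal (circles), against the distance in kb from the centre of each locus. The squares of the let-607 RNAi-labelled libraries stand far above those of the control libraries except for T27E4.8, while among the neighbours the widest gap is that of F21C10.9, which is lower (log2 fold change -2.66).

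Outside the family, the 5 tested genes whose centred log2 profile over the 6 libraries lay nearest to the mean hsp-16 profile were the pseudogene WBGene00269338, Y58A7A.5, F22E5.6, C04C3.14 and the HSP70 gene F44E5.4. Their root mean square differences from it ran between 1.03 and 1.78 on the log2 scale. That mean profile was taken over the 5 tested hsp-16 genes, so the identical values of the hsp-16.48 copies entered it in duplicate. WBGene00269338, on chromosome II, was at 23.1, 28.2 and 27.6 FPKM in the let-607 RNAi-labelled libraries, against 0, 0.27 and 0 FPKM in the control libraries. Y58A7A.5, on chromosome V, was at 15.6, 18.6 and 15.9 FPKM in the let-607 RNAi-labelled libraries, against 0.42, 0.15 and 0 FPKM in the control libraries. F44E5.4 was the only gene of the heat shock lists among the 5, and in the let-607 RNAi-labelled libraries none of them reached the level of any of the 5 hsp-16 genes that could be tested. With 2 groups, this measure ranks genes mainly by the size of their difference between the groups.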

How the data were processed

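RNA sequencing of whole N2 worms at L4 gave 6 libraries, 3 per group, grouped by sample labels. The labels do not say whether they came from separate cultures, so p-values measure only the spread between these libraries. The authors deposited FPKM per gene, rounded to 2 decimals. The paper's methods name a stranded mRNA kit, TopHat and Cufflinks, while the submitters' processing notes name fastp, HISAT and RSEM on WBcel235, so which of them made the values is unclear. Gene copies share reads, and FPKM of transcripts of 432 to 476 bases depends on how the tool corrects for fragment length.

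Of 48197 lines, 1 was broken and 1418 repeated a gene with the same values, leaving 46778 genes, of which 46603 matched Ensembl annotation release 115. The 15453 genes averaging 0.5 FPKM or more were compared by limma 3.58.1 in R 4.3.3 on log2(FPKM + 0.1), with eBayes with a mean-variance trend and Benjamini-Hochberg adjustment over all of them. The test was checked on simulated data. Tables and plots were made in Python 3.11.15 (pandas 2.3.3, matplotlib 3.10.9). The members and lists were chosen with earlier results of these data known. Named genes are all hsp-16 genes, every gene of the listed chaperone, regulator and marker groups, let-607, neighbours within 10 kb and the 5 genes of most similar profile; only some values are printed. Depth was estimated, a choice made after seeing the data, from 8382 single-transcript genes of 700 to 1600 bases and values under 3.5 fragments; it covers counting only approximately. Alternatives were other pseudocounts, filters, scalings, variance settings, a replicate block, summed copies and leaving out each library. Promoter and protein sequences were not analysed here.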

Additional observations from a re-analysis of the deposited data

How the results depend on the processing

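With a pseudocount of 1, the log2 fold changes were 8.51 for hsp-16.2, 8.64 for hsp-16.41 and 7.43 for each hsp-16.48 copy, since a pseudocount of 1 is large beside control means of 0.507, 0.660 and 2.18 FPKM. With a mean of at least 5 FPKM, 275 genes passed as higher and 124 as lower, with fewer genes tested, and hsp-70 of the heat shock lists was no longer tested. Leaving out 1 library, the log2 fold changes ran between 9.56 and 10.07 for hsp-16.2, 9.51 and 10.16 for hsp-16.41, 8.97 and 9.60 for T27E4.2 and 7.80 and 8.03 for hsp-16.48, and 5 heat shock list genes passed each time. The difference in log2 ratio of hsp-16.2 over hsp-16.41 ran between -0.28 and 0.55 on leaving out 1 library and was -0.13 with a pseudocount of 1, so its sign is not determined. For hsp-16.1 over hsp-16.48 it stayed between 1.02 and 1.43. Genes passing as higher among all passing genes made up 72.8% as deposited, 76.7% after rescaling to TPM, 63.5% after median-of-ratios scaling and 58.4% after quantile normalization. Correlations of deviations from the group mean were -0.058, 0.0028 and -0.018 for libraries of the same replicate number. For different numbers they ran between -0.068 and 0.085. With 3 libraries per group these values cannot show whether same-numbered libraries shared a culture or batch. With the replicate block, 586 genes passed as higher and 218 as lower, and the log2 fold change of hsp-16.2 was 9.87.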
